A study of Homo sapiens with 12 samples.

Results

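ERLIN2 was one of the transcripts that fell when lung adenocarcinoma cells received miR-197, and it was followed here together with the genes of cholesterol and fatty acid synthesis. The set holds 30 genes: ERLIN2 and ERLIN1, 5 regulators of the SREBP pathway, 15 enzymes of cholesterol synthesis, the sterol carrier STARD4, and 7 enzymes of fatty acid synthesis and desaturation. A gene belonged to it when its symbol was the gene name of a probe on the arrays, which gave 42 of 50599 probes, and all 30 genes were among the 24856 genes tested. The cells were A549, PC14 and PC14CDDP. The study describes PC14CDDP as a drug-resistant line (CDDP is cisplatin) and PC14 as its parental line. In every line 4 oligonucleotides were delivered separately at 25 nM with a lipid reagent: premiR-197, a synthetic miR-197 precursor (a mimic); NC, its nontargeting control; LNA-miR-197, a locked nucleic acid inhibitor of the miRNA; and LNA-NC, the inhibitor's control. Each transfection of a line was read on 1 of 12 single-dye Agilent arrays of 60-mer probes from 100 ng of RNA. The lines are therefore the replicates (n = 3), of which PC14 and PC14CDDP are related and so not independent. Untransfected cells are not among the arrays.

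ERLIN2 and ERLIN1 are prohibitin-family proteins that form a ring-like complex in lipid-rich domains of the endoplasmic reticulum. The complex takes activated inositol trisphosphate receptors to degradation and holds back the SREBP transcription factors in sterol-loaded cells. When sterols run low, SCAP releases from the INSIG proteins and carries SREBP precursors to the Golgi apparatus, where they are cut, and the released factors turn on the cholesterol genes (mainly SREBF2) and the fatty acid genes (mainly SREBF1). INSIG1, STARD4, IDI1, SQLE and FADS1 are known as sterol-responsive SREBP targets, as are other genes of the set. They are named here because they passed the test after LNA-miR-197 below.

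The miRNA itself is shown because its seed, the bases that pair with a target, defines what the mimic and the inhibitor address. The labels name miR-197 without an arm. The RefSeq table for GRCh38.p14 holds both arms of the hairpin, which lies on the plus strand of chromosome 1 (chr1:109598893-109598967), and bases 2 to 8 of each arm are in capitals.
hsa-miR-197-3p: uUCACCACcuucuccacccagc
hsa-miR-197-5p: cGGGUAGAgagggcagugggagg
The seeds of the arms, UCACCAC and GGGUAGA, differ.

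Slide 1 held the arrays of A549, and slide 2 those of PC14 and PC14CDDP, so slide and A549 cannot be told apart. A given transfection also sat in the same column of the slide in each line, so slide position and transfection cannot be told apart. A level is the log2 of the processed signal over the 75th percentile of its array, which was 613 to 719 signal units, and 55.8% to 63.0% of probes were well above background. The probe used for each of the 30 genes was well above background on all 12 arrays, and none was saturated (0 spots). Of 8 epithelial markers, 8 were above background on at least 3 of 4 arrays in A549, 7 in PC14 and 6 in PC14CDDP, where EPCAM and CDH1 were well above background on 0 of 4 arrays. Of 4 markers of the lung adenocarcinoma lineage 2, 3 and 3 were above background in the order A549, PC14 and PC14CDDP, and of 6 fibroblast markers 1 in each line. In the same order, of 5 leukocyte markers (LYZ without a measured value) 4, 3 and 3 were above background. Of 3 endothelial markers 2, 3 and 2 were, and of 4 squamous markers 0, 1 and 0. Their part in the results below was not tested.

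ERLIN2 was lower after premiR-197 than after NC in all 3 lines, and it was the only 1 of the 30 genes that limma called in this comparison. In A549 its level was -0.19 after NC and -1.29 after premiR-197, in PC14 it was -0.41 and -1.71, and in PC14CDDP it was -0.66 and -2.30. The premiR-197 array was the lowest of the 4 arrays in each line. The log2 ratio was -1.10, -1.30 and -1.64 in A549, PC14 and PC14CDDP, a fitted mean of -1.35 (SE 0.13, limma adjusted p = 0.0216), which is a 2.54-fold lower signal. These are levels in RNA of whole cultures, in which fewer expressing cells and less RNA per cell cannot be told apart. Over all genes tested, 0.137% were called lower and 0.0805% higher after premiR-197. A second ERLIN2 probe (chr8:37602105-37602164 of hg19, against chr8:37614638-37614697 for the probe above) gave -1.22, -0.89 and -1.24, and with it in place of the first the adjusted p was 0.0492. The remaining probe was well above background on 4 of the 12 arrays and gave ratios of -0.96, 0.00 and 1.10. The call did not hold with any line left out (limma adjusted p = 0.142 without A549, 0.700 without PC14 and 0.438 without PC14CDDP), and without the cell line in the model the adjusted p was 1.00. It held when LNA-NC served as the control, with a log2 ratio of -1.08 (limma adjusted p = 0.0136), in a comparison added after the data were seen in which 1.63% of all genes were called lower and 1.34% higher.

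ERLIN1, which forms the complex with ERLIN2, did not fall with it. Its levels after NC and premiR-197 were -0.97 and -0.88 in A549, -0.60 and -0.17 in PC14, and -0.48 and -0.05 in PC14CDDP. The ratios of 0.09, 0.44 and 0.43 were above 0 in each line, without passing the test (mean 0.32, SE 0.14, limma adjusted p = 0.309).

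**Figure D1:**
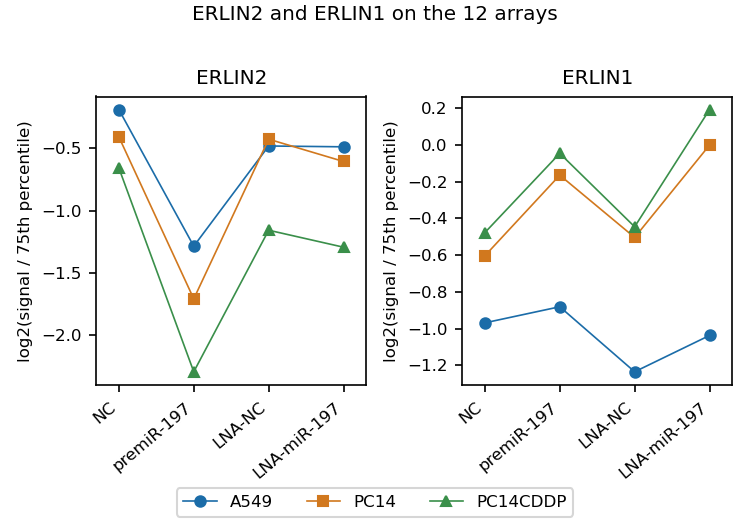
Levels of ERLIN2 (left) and ERLIN1 (right) on the 12 arrays, as log2 of signal over the 75th percentile of the array, for 4 transfections (x axis) and 3 lines (colors, with a line joining the arrays of the same cell line, 1 array per point). ERLIN2 is lowest after premiR-197 in each line, at -1.29, -1.71 and -2.30, and ERLIN1 after premiR-197 lies above NC in each.

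None of the other 29 genes was called after premiR-197 (0 of 29). Of the 29, 8 had ratios below 0 in all 3 lines, 5 had ratios above 0 in all 3, and 16 were mixed. Among all genes tested 19.5% were below 0 in all 3 lines and 24.7% above. The median ratio of the 30 genes was -0.09, beside 0.02 for all genes. Of the 29 fitted ratios without ERLIN2, 21 were below 0, beside 11470 of the 24856 genes tested. With LNA-NC as the control 14 of the 29 were below 0, beside 10318 of the 24856. The median of the 29 was then 0.02, beside 0.06 for all genes.

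After ERLIN2, the regulator INSIG1 and the sterol carrier STARD4 stood furthest below NC. INSIG1, which anchors SCAP in the endoplasmic reticulum when sterols are plentiful, had levels after NC and premiR-197 of 0.87 and 0.57 in A549, 1.62 and 0.70 in PC14, and 1.08 and 0.11 in PC14CDDP. The ratios were -0.29, -0.92 and -0.97 (mean -0.73, 95% interval -1.21 to -0.25, limma adjusted p = 0.160). STARD4, which moves cholesterol between membranes, had levels of -1.07 and -1.39, -1.20 and -2.56, and -1.16 and -2.27, with ratios of -0.31, -1.37 and -1.11 (mean -0.93, 95% interval -1.73 to -0.13, limma adjusted p = 0.248). Both genes were lower after premiR-197 in each line, with the smallest difference in A549, and neither passed the test over all genes. With LNA-NC as the control both differences were smaller, at 0.09, -0.57 and -0.24 for INSIG1 (mean -0.24, limma adjusted p = 0.528) and 0.05, -0.31 and -0.46 for STARD4 (mean -0.24, limma adjusted p = 0.724), with A549 on the other side of 0. INSIG2, the close relative of INSIG1, gave ratios of -0.26, 0.02 and -0.08, SREBF1 of -0.00, 0.04 and -0.34, SREBF2 of -0.19, -0.07 and -0.19, and SCAP of 0.19, 0.09 and -0.01. The 4 fitted means lay between -0.15 and 0.09.

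Of the 15 cholesterol synthesis enzymes, 5 were below 0 in all 3 lines after premiR-197 (ACAT2, IDI1, FDPS, LSS and HSD17B7), 1 was above (SQLE) and 9 were mixed. Their median ratio was -0.12 and limma called 0 of 15. The lowest mean was that of LSS, lanosterol synthase, which closes the sterol ring (-0.36, limma adjusted p = 0.314), but the second LSS probe gave 0.31. ACAT2, which makes acetoacetyl-CoA at the start of the route, had -0.22, -0.31 and -0.45 (limma adjusted p = 0.239). TM7SF2, a sterol reductase, had -0.997 in A549, -0.48 in PC14 and 0.69 in PC14CDDP. Among the 7 fatty acid genes the median was 0.01, with 0 of 7 called. ACLY, ACACA and FASN, which carry citrate carbon into palmitate, were above 0 in all 3 lines with means of 0.12, 0.12 and 0.16. A second probe of ACACA gave a mean of -0.16, and a second probe of ELOVL6, an elongase, gave -0.45 where the first gave 0.01. SCD, which puts the double bond into stearate, had 0.01 in A549, -0.35 in PC14 and -1.24 in PC14CDDP (mean -0.52, limma adjusted p = 0.273).

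Genes that act beside these were read from lists of the same pathways. Of 8 genes of the SREBP activation machinery, 1 fell after premiR-197. It was SPRING1, a cofactor of the protease that cuts SREBP precursors in the Golgi, with ratios of -1.17, -1.14 and -1.01 (mean -1.11, SE 0.10, limma adjusted p = 0.0145). Limma called 0 of 9 other sterol synthesis enzymes, 0 of 17 other fatty acid synthesis genes, 0 of 16 partners in endoplasmic reticulum degradation, 0 of 16 genes of sterol uptake, storage and transport, 0 of 7 LXR targets and 0 of 15 fatty acid oxidation genes. The largest mean ratios in these lists were -0.42 for SC5D, 0.42 for ELOVL7, 0.58 for UBXN8, 0.34 for NPC1, 0.37 for ABCA1 and 0.49 for ACADM (limma adjusted p = 0.0969 to 0.588).

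**Figure D2:**
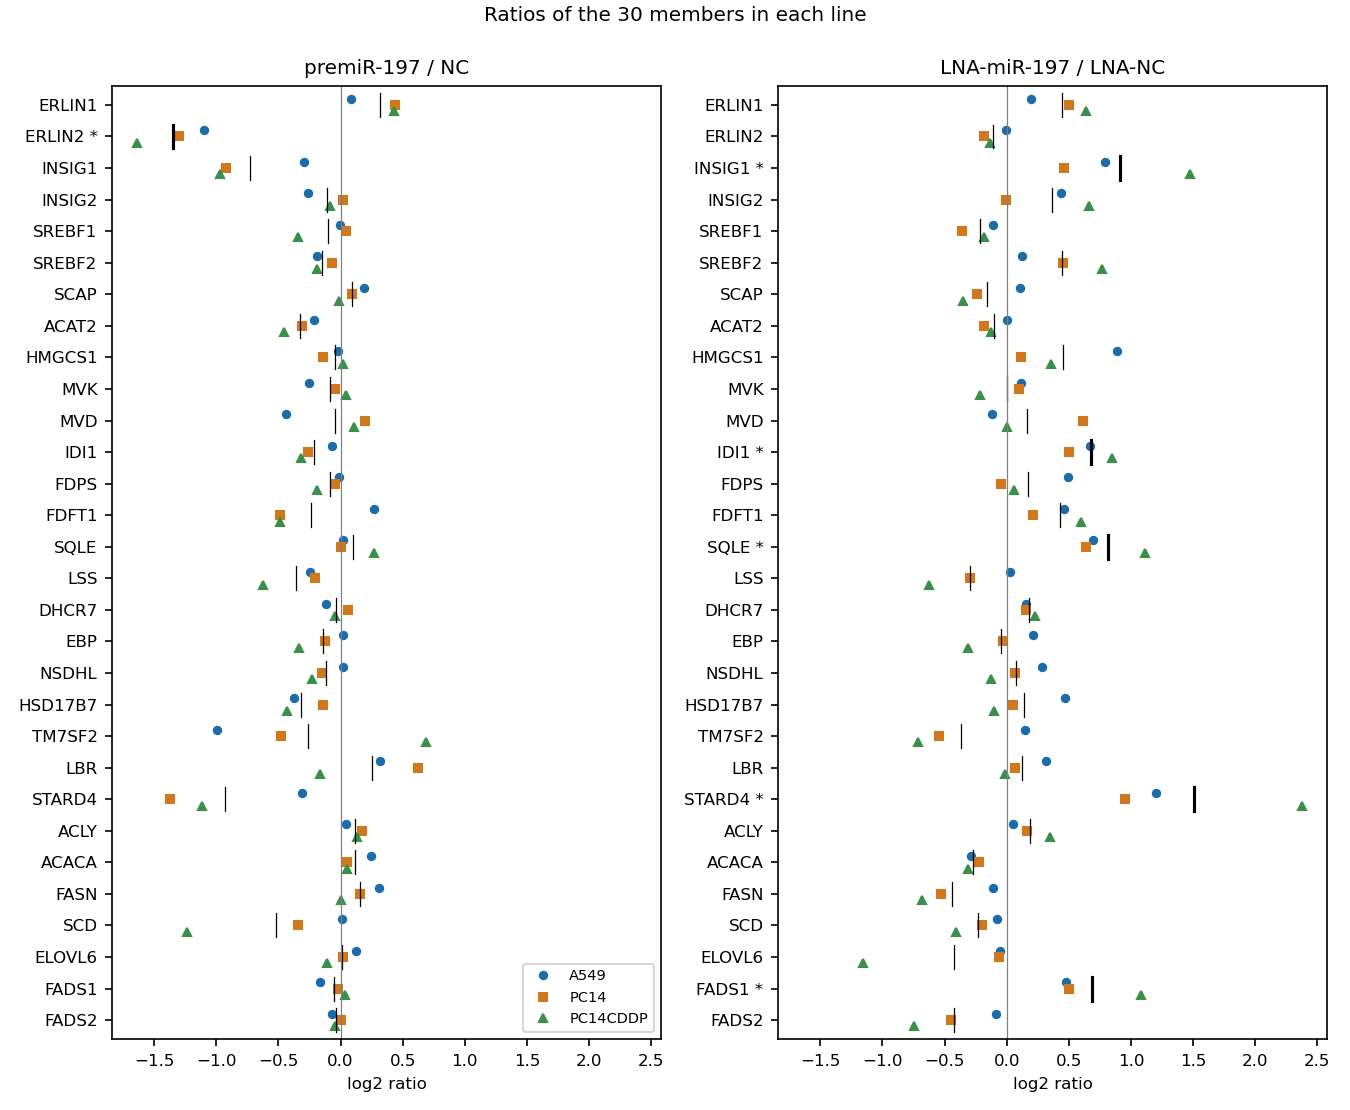
Log2 ratios of the 30 genes in each line after premiR-197 against NC (left) and after LNA-miR-197 against LNA-NC (right). Points are single lines, bars are the fitted means, and a thick bar and a star mark a limma adjusted p under 0.05. ERLIN2 is the only star on the left, at -1.35, and INSIG1, IDI1, SQLE, STARD4 and FADS1 are starred on the right, at 0.68 to 1.51.

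After LNA-miR-197, 5 of the 30 genes rose against LNA-NC, and 0 fell. Over all genes tested, 3.9% were called higher and 3.86% lower in this comparison. ERLIN2 itself was not among them: its levels after LNA-NC and LNA-miR-197 were -0.48 and -0.49 in A549, -0.43 and -0.61 in PC14, and -1.16 and -1.29 in PC14CDDP (mean ratio -0.11, 95% interval -0.41 to 0.19, limma adjusted p = 0.642). The second ERLIN2 probe gave 0.20, 0.29 and 0.79, on the other side of 0, and was not called in place of the first (limma adjusted p = 0.129). ERLIN1 had ratios of 0.20, 0.50 and 0.64 (limma adjusted p = 0.0863).

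STARD4 rose most among the 5. Its levels after LNA-NC and LNA-miR-197 were -1.44 and -0.24 in A549, -2.25 and -1.31 in PC14, and -1.81 and 0.57 in PC14CDDP. The ratios were 1.20, 0.95 and 2.38 (mean 1.51, SE 0.35, 2.85-fold, limma adjusted p = 0.0413). LNA-miR-197 gave the highest of the 4 STARD4 levels in A549 and PC14CDDP but not in PC14, where NC stood higher at -1.20. INSIG1 had levels of 0.49 and 1.28, 1.27 and 1.73, and 0.35 and 1.83, with ratios of 0.79, 0.46 and 1.47 (mean 0.91, SE 0.21, limma adjusted p = 0.0409). IDI1, which isomerizes isopentenyl diphosphate, had levels of 1.32 and 1.99, 0.71 and 1.21, and 1.00 and 1.85 (mean ratio 0.68, SE 0.11, limma adjusted p = 0.0218). SQLE, squalene epoxidase, had levels of 3.16 and 3.86, 3.06 and 3.69, and 2.47 and 3.58 (mean ratio 0.82, SE 0.14, limma adjusted p = 0.0218). FADS1, the desaturase that makes arachidonate, had levels of 4.62 and 5.10, 2.09 and 2.59, and 1.53 and 2.61 (mean ratio 0.69, SE 0.15, limma adjusted p = 0.0340). For all 5 genes the rise was largest in PC14CDDP. The LNA-miR-197 array of that line had the lowest 75th percentile of all arrays, at 613 signal units against 671 for its LNA-NC array. It also had the lowest share of probes well above background, at 55.8% against 59.4%. Whether this array, rather than the line, set the larger rises was not tested. The calls of all 5 were lost with any line left out and without the cell line in the model.

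The LNA-NC arrays were lower than the NC arrays for these 5 genes, and their fitted ratios were smaller with NC as the control. The genes were picked by their ratio to LNA-NC, so low LNA-NC levels are partly set by that choice. LNA-NC stood below NC in all 3 lines for INSIG1 (-0.38, -0.35 and -0.73), STARD4 (-0.37, -1.06 and -0.65), SQLE (-0.49, -0.12 and -0.27), FADS1 (-0.39, -0.40 and -0.32) and IDI1 (-0.23, -0.20 and -0.16). Limma called 0 of the 30 genes between the controls (adjusted p = 0.319 to 0.991), beside 0.201% of all genes lower and 0.495% higher. Of the 30 genes, 14 were below 0 in all 3 lines and 0 above, against 26.9% and 17.4% of all genes. With NC as the control, a comparison added after the data were seen, 2 of the 5 genes remained called: IDI1 at 0.44, 0.30 and 0.69 (mean 0.48, limma adjusted p = 0.0314) and SQLE at 0.21, 0.52 and 0.84 (mean 0.52, limma adjusted p = 0.0399). INSIG1 was 0.41, 0.11 and 0.74 (limma adjusted p = 0.201), FADS1 was 0.09, 0.10 and 0.76 (0.170), and STARD4 was 0.83, -0.11 and 1.73 (0.147). ERLIN2 was -0.30, -0.20 and -0.64 against NC (mean -0.38, limma adjusted p = 0.0857), below 0 in each line. FASN, fatty acid synthase, was called lower against NC, at -0.20, -0.54 and -0.61 (limma adjusted p = 0.0443). In that comparison 7.08% of all genes were called higher and 7.84% lower.

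**Figure D3:**
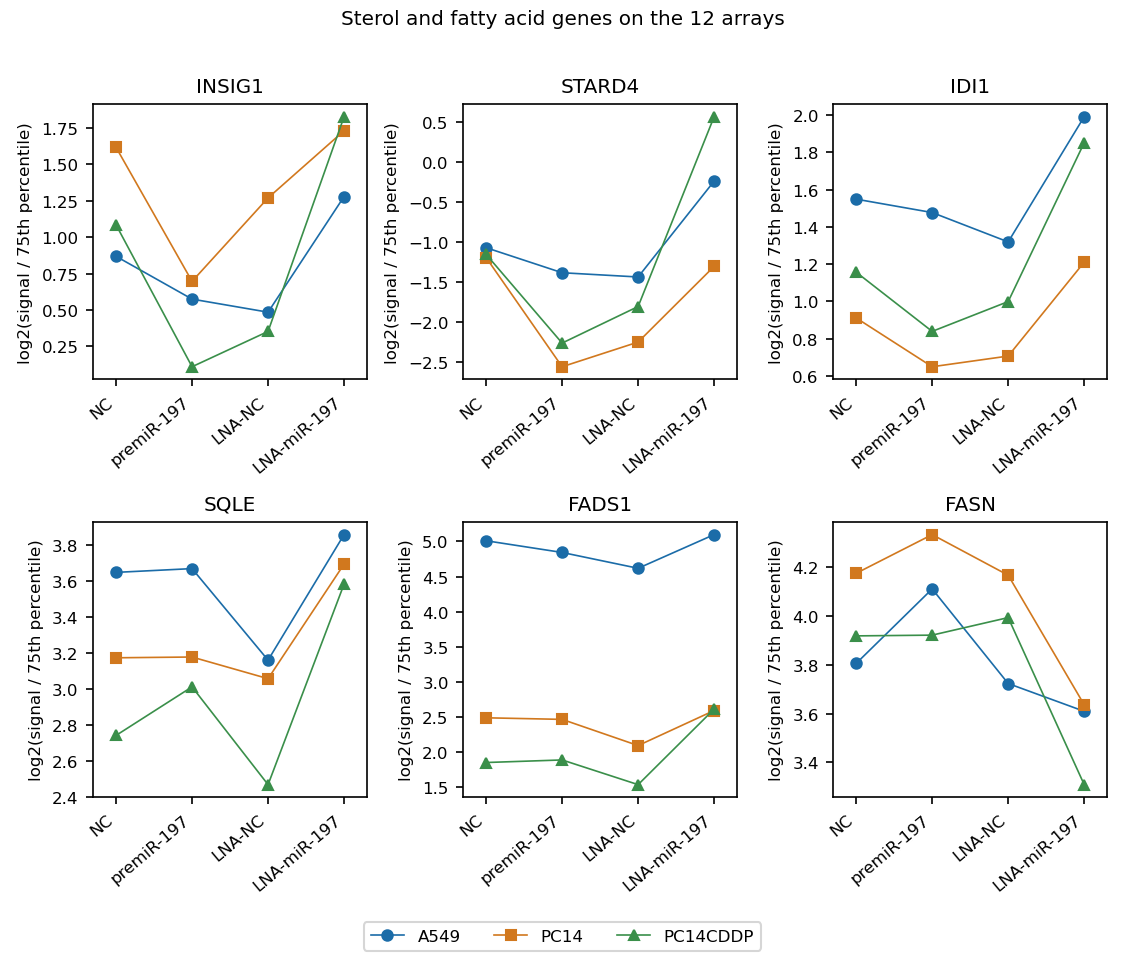
Levels of INSIG1, STARD4, IDI1, SQLE, FADS1 and FASN on the 12 arrays, as log2 of signal over the 75th percentile of the array, by transfection (x axis) and line (colors, lines joining arrays of the same cell line). The first 5 genes are lower on LNA-NC than on NC in every line, and IDI1 and SQLE are highest on LNA-miR-197 in every line.

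**Figure D4:**
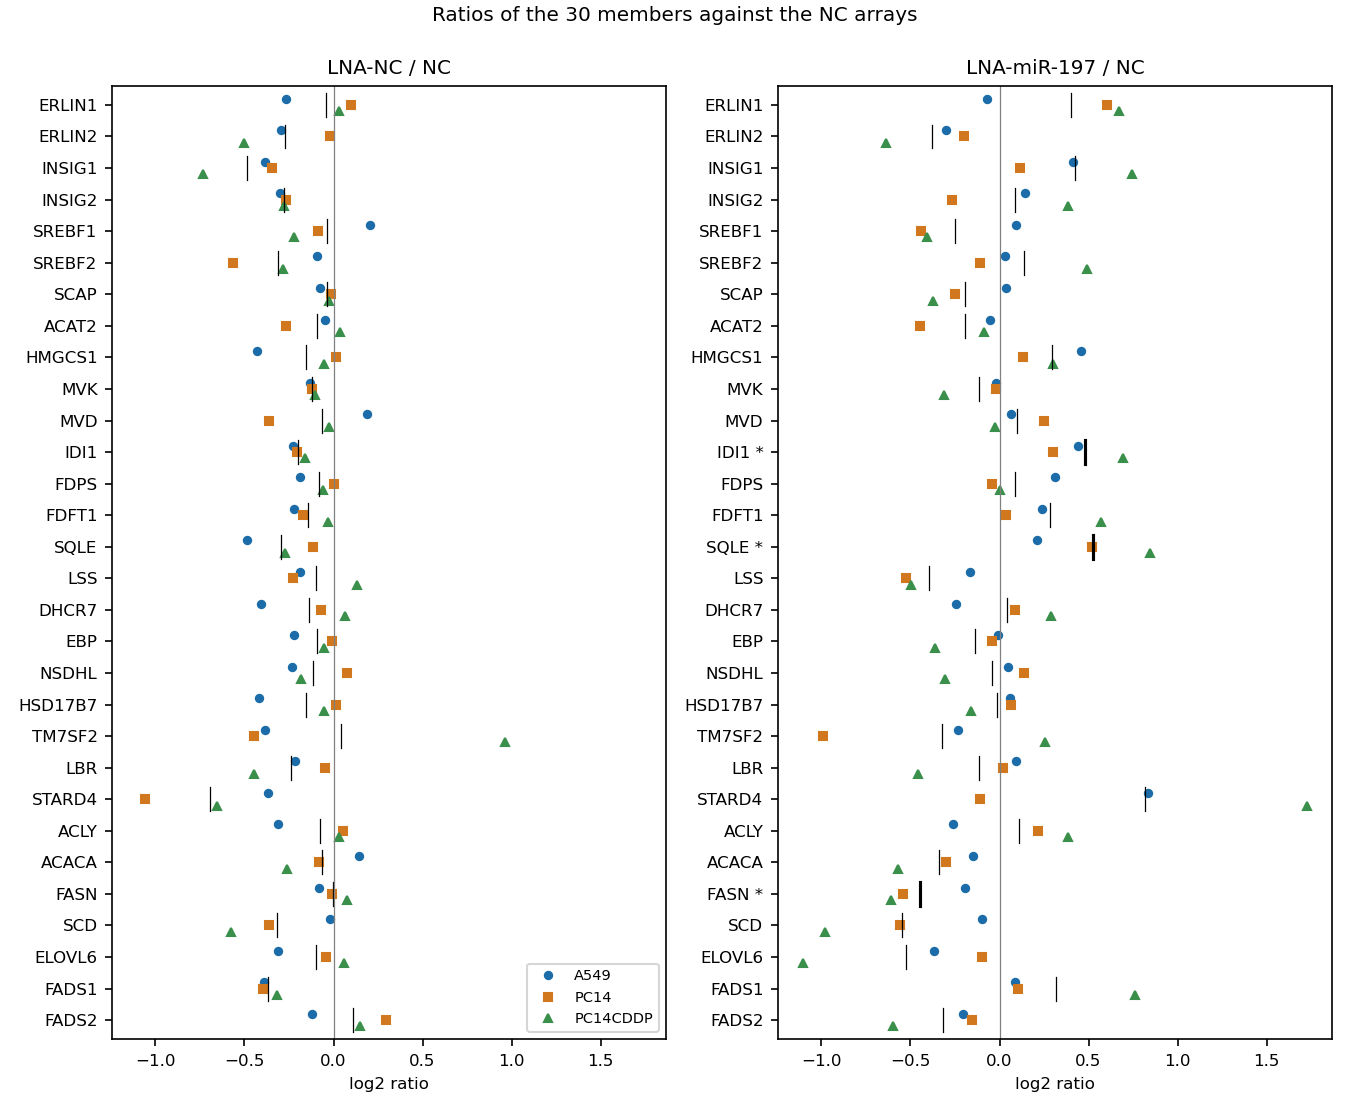
Log2 ratios of the 30 genes against the NC array of the same line, for LNA-NC (left) and LNA-miR-197 (right). Points are single lines, bars are the fitted means, and a star and a thick bar mark a limma adjusted p under 0.05. There is no star on the left, where most bars lie left of 0, and IDI1, SQLE and FASN are starred on the right.

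Against LNA-NC, 11 of 15 cholesterol enzymes had fitted ratios above 0 after LNA-miR-197, beside 12036 of the 24856 genes tested. Below 0 were 5 of 7 fatty acid genes, beside 12820 of the 24856. Against NC 7 of the 15 were above 0, with a median of -0.012, and 5 of the 7 below, with a median of -0.34. Of the 24856 genes, 10796 were above 0 against NC and 14060 below, with a median of -0.06. Of the 15 cholesterol enzymes, 5 were above 0 in all 3 lines, 1 was below and 9 were mixed, with a median ratio of 0.14. HMGCS1, which makes HMG-CoA, had 0.89, 0.12 and 0.36 (limma adjusted p = 0.0827), and FDFT1, squalene synthase, had 0.46, 0.21 and 0.60 (0.219). HSD17B7 had a mean of 0.14, and another of its probes gave -0.20. Of the 7 fatty acid genes, 5 were below 0 in all 3 lines and 2 above, FADS1 and ACLY, with a median of -0.27. FASN had -0.11, -0.53 and -0.69 (limma adjusted p = 0.0631), and FADS2 had -0.09, -0.45 and -0.74 (0.0854), although its second probe gave a mean of 0.13. ACACA had -0.29, -0.22 and -0.31 (0.137), and its second probe gave 0.23. Among all genes tested 24.4% were below 0 in all 3 lines and 23.4% above, and the median was -0.01. SREBF2 had 0.12, 0.45 and 0.77 (limma adjusted p = 0.119), SREBF1 -0.11, -0.36 and -0.18 (0.344), INSIG2 0.44, -0.00 and 0.66 (0.170), where its second probe gave a mean of -0.24, and SCAP 0.11, -0.24 and -0.35 (0.378).

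In the wider lists, to be read beside the 3.86% of all genes called lower and 3.9% called higher, CYP51A1, the lanosterol demethylase, rose by 0.42 (limma adjusted p = 0.0442), 1 of 9 other sterol synthesis enzymes. Of 17 other fatty acid synthesis genes 3 fell and 1, the elongase ELOVL7, rose by 0.45. ACACB, the mitochondrial partner of ACACA, fell by 0.95, the desaturase SCD5 fell by 0.67, and TECR, which completes elongation of very long chains, fell by 0.48 (limma adjusted p for the 4 genes = 0.0451 to 0.0485). NPC1, which exports cholesterol from lysosomes, rose by 0.65 (0.0236), 1 of 16 transport genes. UBXN8 rose by 0.55 (0.0472), 1 of 16 degradation partners. LPCAT3, a phospholipid acyltransferase, fell by 0.70 (0.0408), 1 of 7 LXR targets, and PPARA, a fatty acid sensing receptor, fell by 0.77 (0.0474), 1 of 15 oxidation genes. Of the 8 genes of SREBP activation 0 were called, with PAQR3 furthest from 0 at 0.58 (0.0716).

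The mimic and the inhibitor were then compared through their own controls, as the log2 ratio after premiR-197 minus that after LNA-miR-197. Limma called 0 of the 30 genes, beside 0.0724% of all genes lower and 0.0443% higher. The lowest adjusted p values belonged to ERLIN2 (-1.24, SE 0.18, adjusted p = 0.0638), INSIG1 (-1.64, SE 0.30, 0.0826), IDI1 (-0.89, SE 0.16, 0.0826) and STARD4 (-2.44, SE 0.49, 0.0879). These 4 differences were below 0 in each line. All 4 genes passed in 3 of the alternatives (normexp background correction, the filter on all 12 arrays, and a trended robust prior). Because the controls differ, the gap of LNA-NC to NC is part of each difference, with fitted means of -0.49 for INSIG1 and -0.69 for STARD4. INSIG1, IDI1 and STARD4 had also been picked by their ratio to LNA-NC. SPRING1 was called at -1.07 (limma adjusted p = 0.0492).

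The promoters of genes called after LNA-miR-197 are shown because SREBP targets are classically described by a sterol regulatory element near a CCAAT box, the site of NF-Y. RefSeq promoters of GRCh38.p14 (250 bases before the start to 50 after) were listed for 24 of the 30 genes. None was listed for ERLIN1, ERLIN2, ACAT2, FDFT1, FASN or SQLE, the last of which was called after LNA-miR-197. The letters TCACNCCAC (an SRE-like motif, either strand) occurred in 1 of 24 genes, SREBF2, beside 1.39% of 27305 genes with a promoter. CCAAT occurred in 18 of 24 (75%) beside 39.7%, and GGGCGG (a GC box) in 22 of 24 (91.7%) beside 48.3%. CACGTG (an E-box) occurred in 3 of 24 (12.5%) beside 8.77%. The 27305 genes are all those with a listed promoter, whether or not these cells express them, so the shares are not matched for expression. A gene with several listed starts counted when any of them matched, and no match says only that these letters are not in the window. The 250 bases before the start follow for INSIG1 (chr7:155297628-155297877, plus strand), STARD4 (chr5:111512536-111512785, minus strand) and IDI1 (chr10:1048887-1049136, minus strand, the one of its 3 starts with the most matches), with CCAAT or its reverse complement ATTGG in capitals.
INSIG1: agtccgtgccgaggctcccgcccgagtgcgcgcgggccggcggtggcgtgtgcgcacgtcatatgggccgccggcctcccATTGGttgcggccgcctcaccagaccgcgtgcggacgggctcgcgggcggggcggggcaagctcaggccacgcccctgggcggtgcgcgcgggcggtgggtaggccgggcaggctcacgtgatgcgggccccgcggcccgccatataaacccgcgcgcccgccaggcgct
STARD4: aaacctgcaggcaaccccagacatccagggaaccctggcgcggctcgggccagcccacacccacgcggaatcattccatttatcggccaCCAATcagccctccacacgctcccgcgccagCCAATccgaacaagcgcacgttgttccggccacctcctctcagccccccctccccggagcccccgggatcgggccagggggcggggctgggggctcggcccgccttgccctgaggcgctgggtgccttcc
IDI1: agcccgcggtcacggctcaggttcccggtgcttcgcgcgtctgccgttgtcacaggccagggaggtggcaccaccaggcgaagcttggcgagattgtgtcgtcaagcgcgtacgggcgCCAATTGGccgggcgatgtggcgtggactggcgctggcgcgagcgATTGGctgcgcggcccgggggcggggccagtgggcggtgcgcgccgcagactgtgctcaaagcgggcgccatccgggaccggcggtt
INSIG1 held 1 match, STARD4 held 2 and IDI1 held 3, of which a pair overlaps in CCAATTGG. The FADS1 promoter held 0. In SREBF2 the SRE-like letters began at position -133 relative to the start (chr22:41832952-41833000, plus strand), and these letters are in capitals, as are the first bases of the ATTGG that the window cuts off at its end.
SREBF2: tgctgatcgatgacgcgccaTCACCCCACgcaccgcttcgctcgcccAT

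More of the genes were called between lines than between transfections. In PC14CDDP against PC14, limma called 13 of the 30 genes lower and 7 higher, beside 23.3% of all genes lower and 25.1% higher. The median difference of the 30 was -0.36, beside 0.04 for all genes. Each line's 4 arrays hold the same line under different transfections, so these p-values measure the spread between arrays and not between independently derived lines.

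SCD had the largest difference. Its levels in PC14 were 2.19 after NC, 1.84 after premiR-197, 1.83 after LNA-NC and 1.63 after LNA-miR-197, and in PC14CDDP they were -0.02, -1.26, -0.59 and -1.001. The 2 sets of arrays did not overlap, and the mean difference was -2.59 (SE 0.18, 6.01-fold lower, limma adjusted p = 1.55e-05). SREBF2 was lower by a log2 difference of -1.29 (SE 0.14, limma adjusted p = 0.000134), with arrays at 1.49 to 2.05 in the parental line against 0.29 to 1.06. Its partner SREBF1 differed by -0.16 (0.288) and SCAP by 0.04 (0.755). INSIG1 was at -0.48 (0.0565) and INSIG2 at -0.34 (0.0675).

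Of the 15 cholesterol enzymes 7 were lower and 5 higher in PC14CDDP. The 7 were MVD (-1.02), TM7SF2 (-1.18), LSS (-0.82), EBP (-0.81), DHCR7 (-0.70), MVK (-0.50) and ACAT2 (-0.45), of which MVK and MVD act in the mevalonate route and LSS, TM7SF2, EBP and DHCR7 from closure of the sterol ring onward. The 5 were NSDHL (0.90) and HSD17B7 (0.84), which act together in removing the methyl groups at carbon 4 of the sterol, LBR (0.67), a sterol reductase of the nuclear envelope, FDPS (0.53), which makes farnesyl diphosphate, and IDI1 (0.34). For LSS a second probe gave 0.41 in this comparison, and for HSD17B7, which has 5 probes and near-identical pseudogene copies, 1 dim probe gave -0.14 while the others lay between 0.48 and 0.88. Of the fatty acid genes, ACACA (-0.88), FADS1 (-0.44) and FASN (-0.29) were lower beside SCD, and ACLY (0.65) and FADS2 (0.55) were higher, with -0.76 on the second probe of FADS2. ERLIN2 was lower by -0.56 (limma adjusted p = 0.00350), but its second probe gave 0.04, and the arrays of the lines overlapped. They also overlapped for IDI1, FADS1, FASN and FADS2, and the FADS1 difference after LNA-miR-197 was 0.02. ERLIN1 differed by 0.12 (0.438). STARD4 was at 0.66 (0.106).

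In A549 against PC14, 9 of the 30 genes were called lower and 15 higher, beside 32.4% and 35.8% of all genes, with a median of 0.33 beside 0.08. The desaturases of the FADS cluster set A549 apart. FADS2, which starts the synthesis of polyunsaturated fatty acids, had levels of 4.30 to 4.51 in A549, -0.56 to -0.11 in PC14 and -0.29 to 0.45 in PC14CDDP. The difference of A549 to PC14 was 4.78 (SE 0.11, 27.5-fold, limma adjusted p = 1.60e-08). FADS1, its neighbor on chromosome 11, had 4.62 to 5.10, 2.09 to 2.59 and 1.53 to 2.61 (difference 2.49, SE 0.13, 5.60-fold, limma adjusted p = 8.50e-07). The second FADS2 probe gave a difference of 1.60. SREBF1 was higher in A549 by 0.95 and SREBF2 lower by -1.16, with levels of 5.63 to 5.84 against 4.44 to 4.92, and of 0.58 to 0.80 against 1.49 to 2.05. INSIG2 (-0.93), SCAP (-0.82), ERLIN1 (-0.71) and INSIG1 (-0.53) were lower in A549, so that 4 of the 5 regulators were lower and 1 higher. Of the cholesterol enzymes 9 were higher, led by IDI1 and HMGCS1 (both 0.71) and HSD17B7 (0.69), and 3 were lower, MVK (-0.66), LSS (-0.54) and ACAT2 (-0.28). ACLY (0.89), STARD4 (0.80) and SCD (0.56) were higher and ACACA lower (-0.28, with 0.17 on its second probe). Among the called genes, the arrays of A549 and PC14 overlapped for INSIG1, STARD4, FDFT1, SQLE, LBR and ACACA. ERLIN2 differed by 0.18 (limma adjusted p = 0.193), and MVD, DHCR7, TM7SF2, FASN and ELOVL6 were not called either.

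**Figure D5:**
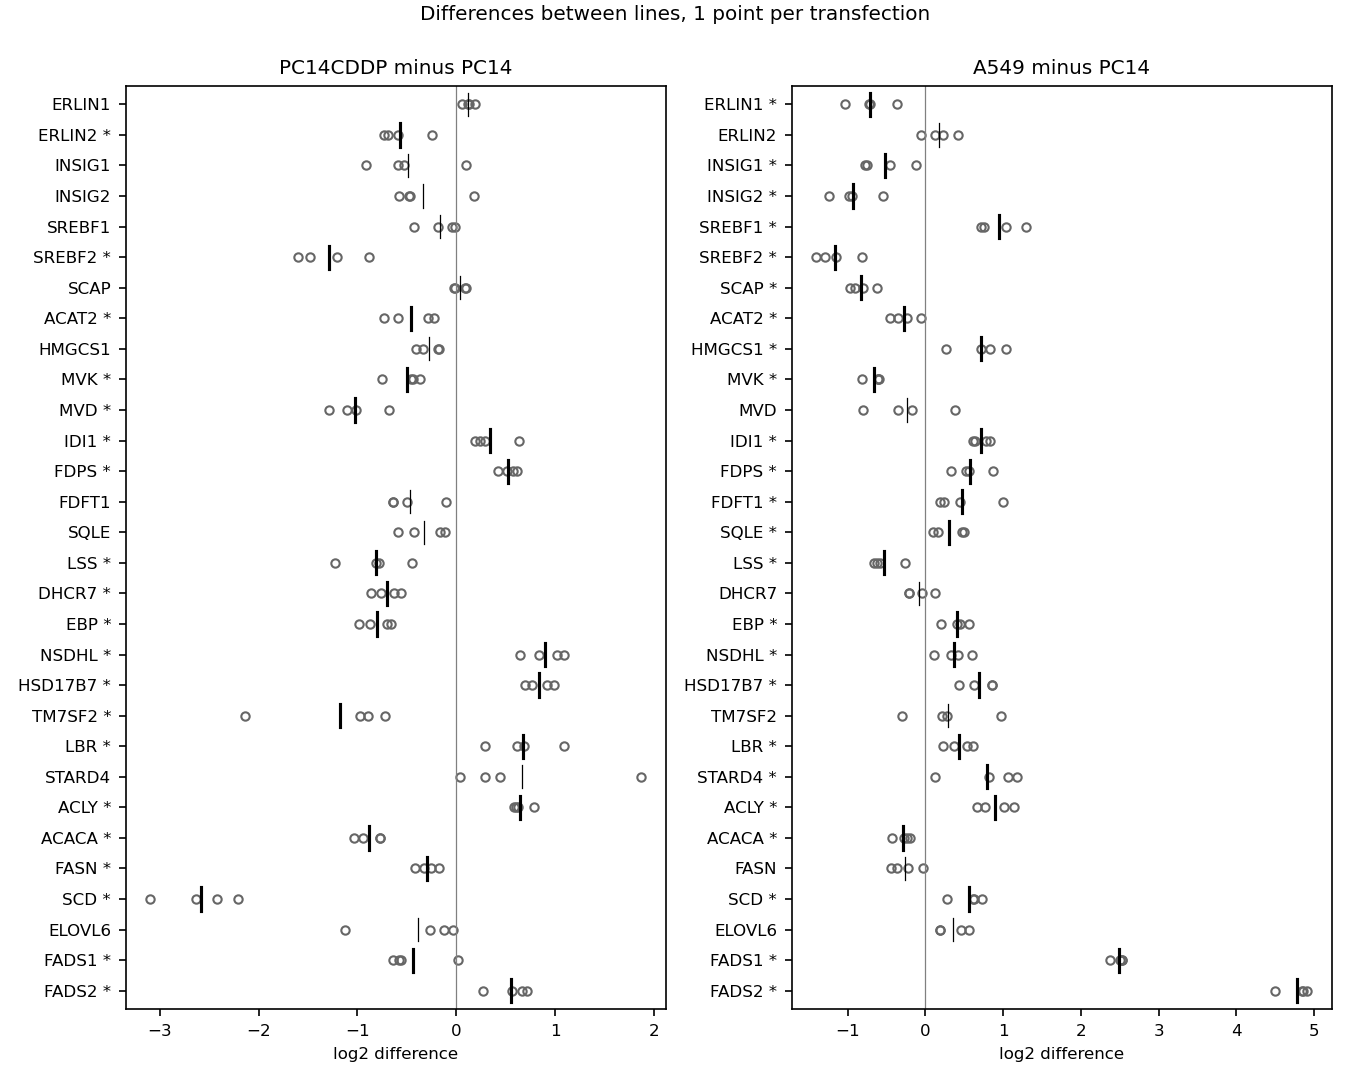
Log2 differences of the 30 genes between lines, PC14CDDP minus PC14 (left) and A549 minus PC14 (right), on separate x scales. Each circle compares the arrays of 1 transfection, bars are the fitted means, and a star and a thick bar mark a limma adjusted p under 0.05. SCD at -2.59 stands out on the left, and FADS2 at 4.78 and FADS1 at 2.49 on the right.

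In the wider lists the counts stand beside 23.3% of all genes called lower and 25.1% higher in PC14CDDP, and 32.4% and 35.8% in A549. In PC14CDDP against PC14, MSMO1 (0.76), a sterol methyl oxidase, was higher and CYP51A1 (-0.61) lower, among 3 higher and 3 lower of 9 other sterol enzymes. MYLIP, an LXR-driven ubiquitin ligase, was lower by -3.58, 5 of 7 LXR targets were lower and 1 higher, and GRAMD1B, a sterol transfer protein, was lower by -3.15. PPARA was lower by -2.53, with 9 of 15 oxidation genes lower and 3 higher. SEC23A, a coat protein of vesicles that leave the endoplasmic reticulum, was lower by -1.20 and SPRING1 higher by 0.93, among 4 lower and 3 higher of 8 activation genes, and ITPR1, an inositol trisphosphate receptor that the ERLIN complex handles, was lower by -1.30, among 7 lower and 3 higher of 16 degradation partners. In A549 against PC14, 10 of those 16 partners were lower and 1 higher, with ITPR3 at -2.24 and SEL1L the higher one at 1.31. ME1 (2.60) and MLXIPL (2.88), which feed fatty acid synthesis with reducing power and glucose-driven transcription, were among 8 higher and 4 lower of 17 other fatty acid genes. GRAMD1C (-4.03) and VLDLR (2.92) differed most among the transport genes, of which 7 were lower and 6 higher. Limma adjusted p for the genes named here was at most 0.00271.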

How the data were processed

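The authors deposited scanner output of the 12 single-dye arrays, made per the file headers by Agilent's Feature Extraction (10.7.3.1): each spot's mean, local background and processed intensity with quality flags, the last after subtracting background and spatial trend. A deposited table repeats the processed intensity (755712 of 755712 cells equal within a relative tolerance of 1e-06), and probe coordinates are on hg19. Scaling between arrays is not given in the sources used here.

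Each processed signal was divided by its array's 75th percentile (all non-control spots) and log2-transformed. Control and outlier spots were left out, spots of a probe averaged, probes kept when well above background on at least 3 of 12 arrays (33712 of 50599), and the brightest probe stood for its gene. RefSeq names (GRCh38.p14) were matched to 28174 probes (55.7%) by accession. A linear model with terms for transfection and line was fitted in limma (3.58.1, under R 4.3.3) to the 12 arrays together, with eBayes and Benjamini-Hochberg adjustment over 24856 genes. An adjusted p under 0.05 was called, and "rose", "fell", "higher" or "lower" of a called gene refers to it. Lines pair treated and control arrays. Deviations from the transfection means correlated within A549 at 0.929 to 0.948, within PC14 at 0.882 to 0.905 and within PC14CDDP at 0.848 to 0.898. The labels do not say whether the lines were transfected on separate occasions, so p-values measure the spread between these arrays. On simulated arrays of 24856 genes for premiR-197 against NC, 60 of 100 genes changed by 1 on the log2 scale and 84 of 100 changed by 2 were recovered, with 7 false calls.

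The genes, the lists and the motifs were chosen with earlier results of these data known, among them the fall of ERLIN2, so no list was tested. All 30 genes are accounted for: called genes, the ERLIN pair and the SREBP regulators with values per array or line, other probes where the sign differed by at least 0.3, and at most 3 called genes per pathway list, or else the one with the largest mean ratio. One gene of a pathway list, not among the 30, is not reported here. The pathway lists left out THRSP and STARD6, which were not kept. Alternatives covered normalization, background correction, filters, probes, blocks, lines left out and the methods' t-test (Student's, named in the study's methods). Exon or UTR positions of probes were not determined. Figures and sequences were made with Python 3.11.15, pandas 2.3.3, numpy 2.4.6 and matplotlib 3.10.9.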

Additional observations from a re-analysis of the deposited data

Results flagged for a closer look

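For 7 of 90 combinations of gene and line, 1 of the 4 arrays stood apart from the other 3 by Dixon's ratio (the gap to the nearest array over the range, past its 95% critical value). Among arrays of the same kind, chance alone would pick out about 1 in 20 such groups. The 4 arrays here are different transfections, and ERLIN2 was followed because of its fall, so that rate is no reference for these counts. ERLIN2 in PC14 had a ratio of 0.848 with premiR-197 lowest. LBR in PC14 had 0.896 with premiR-197 highest, at 4.25 against a next value of 3.65. In PC14CDDP, LNA-miR-197 was the lowest array for SCAP (0.933), FASN (0.891) and ELOVL6 (0.854, at -1.09 against -0.10). In A549, LNA-NC was the lowest array for EBP (0.876) and NSDHL (0.830). TM7SF2 after premiR-197 went opposite ways between lines, with a log2 ratio of 0.69 in PC14CDDP and -0.997 in A549, a gap of 1.68. This difference between lines was not tested, as each line has 1 array per transfection.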

How the results depend on the processing

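After premiR-197, the count of called genes went from 1 (ERLIN2) to 0 with no filter on dim probes, with the mean of a gene's probes, without the replicate block of the line, with the slide as a random block in its place, with only the arrays compared, and by the methods' t-test after adjustment. The ratio of ERLIN2 after premiR-197 and its adjusted p were then -1.35 (0.0616), -0.81 (0.0538), -1.35 (1.00), -1.35 (0.460), -1.35 (0.273) and -1.35 (1.00). With 1 line left out in turn it ranged from -1.47 to -1.20, with 0 to 0 genes called. After LNA-miR-197 the count of 5 became 9 with normexp correction and with the filter on all 12 arrays, 8 with a trended robust prior, 2 with no filter, 3 against NC (chosen after seeing the data), and 0 without the replicate block, with the slide block, with only the arrays compared, by the methods' t-test, and with each line left out (0 to 0). Between mimic and inhibitor 4 genes were called in place of 0 with normexp correction, the filter on all 12 arrays and the trended robust prior. In PC14CDDP against PC14, ERLIN2 turned to 0.088 with the mean of its probes and 0.040 with its second probe (chosen after seeing the data), and FADS2 to -0.10 with the mean of its probes. Other reasons for these shifts were not tested, and fewer arrays leave less precision when a line is dropped. Counts between lines stayed within 1.5 times, and 0 genes were called between the controls under each alternative run.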
